A study of Mus musculus with 46 samples.

Results

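The genes described here are Dppa2, Dppa4, Dppa5a, Tcl1, Fbxo15, L1td1 and Trap1a, 7 effector genes of the pluripotent state taken by their symbols. They are 7 of the 37108 genes in the gene table and 7 of the 35976 genes obtained when transcripts of the iPSC table were summed by symbol. Mouse embryonic fibroblasts (MEF) carrying an Oct4-GFP reporter were infected with retroviruses for Oct4 together with either native Nanog (NanogWT) or a fusion of Nanog with the domain of SS18 that binds BRG1 (NanogBiD, written NanogN70 in the labels), and RNA was sequenced from bulk cells at 8 time points, D0, D1 and D3 among the early ones, D5, D7 and D8 in the middle, and D10 with D12 at the end. Every time-course group had 2 replicates except NanogBiD at D8, which had 1, giving 31 libraries. All of them carried Oct4, also those of D0, which the methods set after 2 rounds of infection, so D0 is not an uninfected baseline. Per the methods the iCD3 induction medium, given from D0, was exchanged for one with 2i and LIF after D7 or at a designed time point. Established induced pluripotent stem cells (iPSC) comprised 6 NanogBiD + Oct4 samples and 6 NanogWT + Oct4 samples of lines labelled iPSC1 and iPSC2, and 2 MEF libraries and 1 mouse embryonic stem cell (mES) library, labelled OG2 for the same Oct4-GFP reporter, served as references. The labels do not say whether replicates came from separate cultures or whether numbered iPSC samples were separate clones, so p-values measure only the spread between these samples. Levels are FPKM, fragments scaled by gene model length and by mapped library size, and differences are on the log2(FPKM + 1) scale.

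Pluripotent cells are marked by transcription factors and also by a layer of genes that those factors switch on. Dppa2 and Dppa4 encode nuclear proteins that form a heterodimer on chromatin at CpG-rich promoters. Dppa5a encodes a KH-domain RNA-binding protein, L1td1 an RNA-binding protein derived from a LINE-1 element, Tcl1 a co-activator of Akt kinases, Fbxo15 an F-box protein of the SCF ubiquitin ligase family whose locus has served as a reporter of reprogramming, and Trap1a an X-linked tumour antigen of early embryonic and germ cells. These genes are silent or nearly so in fibroblasts, which makes them useful to follow how far a culture has come.

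In the reference annotation (GRCm38), Dppa4 (chromosome 16, 48283735 to 48294292) and Dppa2 (chromosome 16, 48310274 to 48319513) are neighbours on the same strand with 15982 bases between them. Dppa5a (chromosome 9, 78367052 to 78368199) has Ooep, a maternal-effect gene with a related domain, as its nearest coding neighbour at 8704 bases. Tcl1 (chromosome 12, 105216753 to 105222737) lies 9760 bases from its relative Tcl1b4, and L1td1 is at chromosome 4, 98726754 to 98738486. Fbxo15 spans Timm21 on the other strand, and Trap1a (chromosome X, 139333683 to 139338169) lies within the span of the noncoding Platr21 on the other strand. Neither pair shares exon bases, and Platr21 was at most 0.256 FPKM in any library of the gene table. Dppa5a has 2 annotated pseudogene copies that the gene table does not list, so its level is uncertain by whatever reads the copies share with it.

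Promoter sequences were held for 3 of the 7 genes, and only these are shown. Each runs from 250 bases before the start to 50 after it, 5′ to 3′ on the gene's strand, from RefSeq on GRCm38.p6: Tcl1 at chr12:105222688-105222987 on the minus strand, L1td1 at chr4:98726504-98726803 on the plus strand and Trap1a at chrX:139333433-139333732 on the plus strand. Capitals mark the core CCACCC bound by Klf factors, or its reverse complement GGGTGG.
Tcl1: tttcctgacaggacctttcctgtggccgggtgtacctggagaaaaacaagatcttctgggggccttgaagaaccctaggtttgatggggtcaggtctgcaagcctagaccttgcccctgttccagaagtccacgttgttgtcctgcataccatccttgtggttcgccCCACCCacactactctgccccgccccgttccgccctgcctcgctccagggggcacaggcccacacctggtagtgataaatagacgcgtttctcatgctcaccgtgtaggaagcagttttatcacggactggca
L1td1: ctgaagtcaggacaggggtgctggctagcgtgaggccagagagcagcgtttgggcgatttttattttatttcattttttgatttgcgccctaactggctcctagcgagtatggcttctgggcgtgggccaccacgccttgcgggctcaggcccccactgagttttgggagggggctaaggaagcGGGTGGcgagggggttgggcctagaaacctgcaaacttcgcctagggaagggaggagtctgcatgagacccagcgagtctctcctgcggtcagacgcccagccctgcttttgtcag
Trap1a: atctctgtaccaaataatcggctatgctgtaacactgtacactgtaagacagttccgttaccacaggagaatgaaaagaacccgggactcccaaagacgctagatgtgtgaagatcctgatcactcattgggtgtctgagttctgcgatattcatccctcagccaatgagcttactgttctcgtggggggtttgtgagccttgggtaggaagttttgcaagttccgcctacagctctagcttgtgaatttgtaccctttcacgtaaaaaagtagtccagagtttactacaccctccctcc
The Klf core had 1 match in Tcl1 and 1 in L1td1 and none in Trap1a, and 31.6% of the 32544 promoters of the same length hold it on either strand. The octamer ATGCAAAT and the Sox core ACAATG, searched on both strands, had no match in these windows, and 1.75% and 12.4% of all promoters hold them. The windows held 11, 14 and 8 CpG for Tcl1, L1td1 and Trap1a, against a median of 7 over all promoters.

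Before the results, some facts of the libraries bear on them. Relative depth, read from the size of the smallest steps in low FPKM values, ran from 0.833 to 1.13 in 25 time-course libraries, while the 6 late NanogWT libraries (D8, D10 and D12) reached 1.9 to 3.26, so from D8 depth and combination cannot be told apart. Summed FPKM of 8 fibroblast markers was 6667 to 7418 in MEF and 189 in mES. It was 979 to 1236 with NanogBiD and 1782 to 1818 with NanogWT at D7, and 434 to 571 against 3217 to 3745 at D12. The summed level of 4 ES cell markers that no vector carried (Sox2, Zfp42, Esrrb and Dppa3) was 23.9 to 26.7 with NanogBiD and 0.694 to 0.792 with NanogWT at D7, and 367 to 520 against 48.4 to 59.2 at D12, with 561 in mES. In these bulk samples, fewer cells of a type and less RNA per cell cannot be told apart, and the part of these shifts in the values below was not tested. Ss18, whose BRG1-binding stretch the fusion carries, was higher in the NanogBiD libraries at D0 (log2 difference 1.10, SE 0.17, limma adjusted p = 0.00103), which matches the labels.

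In fibroblasts the 7 genes were at or near 0. Both MEF libraries listed Dppa2, Dppa4, Dppa5a, Tcl1, L1td1 and Trap1a at 0, and Fbxo15 stood at 0.0831 and 0.122 FPKM. In the mES library the levels were 2396 FPKM for Dppa5a, 137 for L1td1, 112 for Trap1a, 46.6 for Tcl1, 45.6 for Fbxo15, 43.1 for Dppa4 and 29.8 for Dppa2. The genes therefore spanned a wide range at their destination, and the time course is given both in FPKM and as percent of this mES library, which has no replicate.

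**Figure D1:**
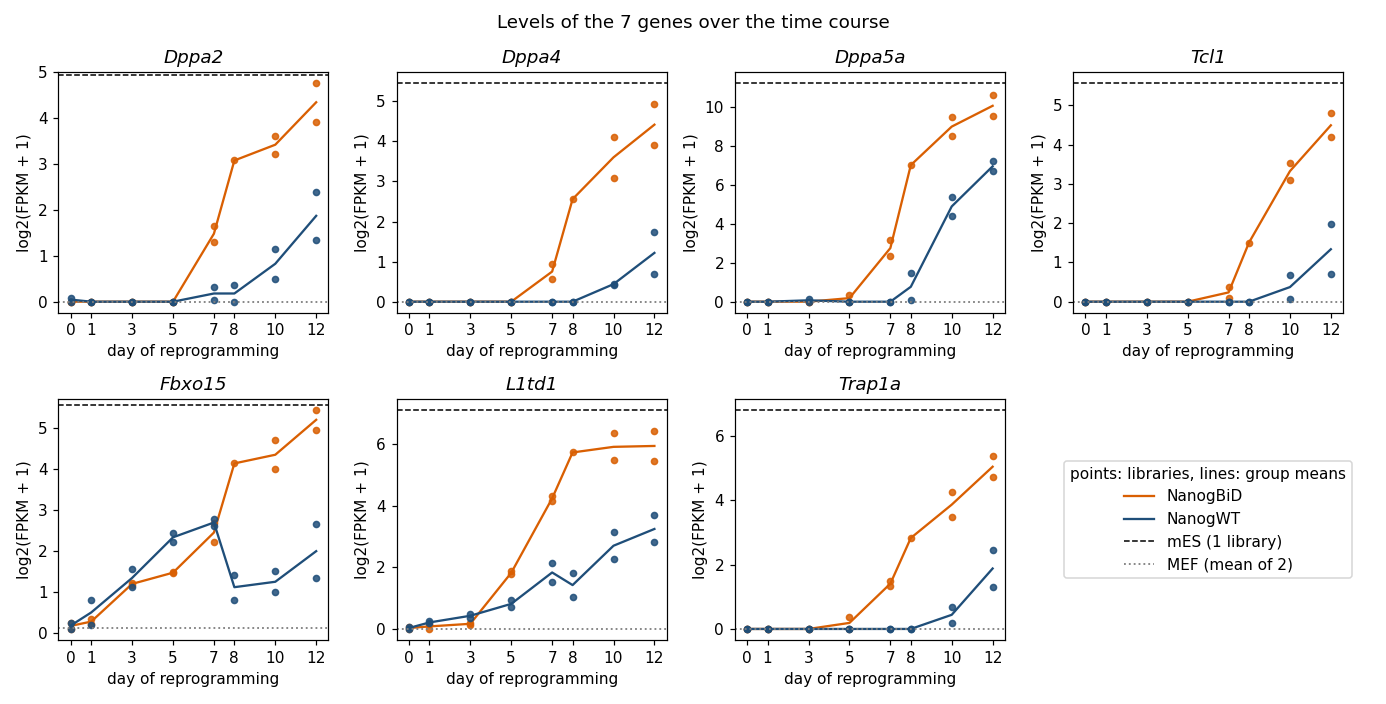
Level of each of the 7 genes as log2(FPKM + 1) against the day of reprogramming, with a point per library, a line through the group means, the mES library dashed and the mean of the MEF libraries dotted. Fbxo15 and L1td1 left the baseline first, the other 5 genes were near 0 up to D5, and from D8 on the NanogBiD libraries were above the NanogWT libraries for every gene, an order that 49.2% of all tested genes had at D8, 45.2% at D10 and 45.9% at D12.

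The first question was when each gene came on with either combination. Fbxo15 was the earliest, and it came on with both combinations. With NanogWT it was 0.0856 and 0.20 FPKM at D0, 1.98 and 1.18 at D3, then 4.43 and 3.68 at D5, then 5.06 and 5.91 at D7. With NanogBiD it was 0.195 and 0.0777 FPKM at D0, 1.27 and 1.33 at D3, then 1.76 and 1.80 at D5, then 3.62 and 5.45 at D7. Against D0, Fbxo15 was called higher at D3 in both combinations, by 1.16 with NanogWT (SE 0.34, limma adjusted p = 0.0117) and 1.02 with NanogBiD (SE 0.34, adjusted p = 0.0241). At D5 both NanogWT libraries were above both NanogBiD libraries, yet the log2 difference between combinations of -0.86 missed the threshold (SE 0.34, adjusted p = 0.0933). The D3 call with NanogBiD was lost whichever of the 4 libraries of D0 and D3 was left out, and with quantile normalization or no filter. The D3 call with NanogWT was lost without the first replicate of D0 or of D3, with quantile normalization and when only the groups compared were fitted.

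L1td1 came next, and against D0 its earliest call was at D5 with NanogBiD and at D7 with NanogWT. Its levels at D3 were 0.147 and 0.099 FPKM with NanogBiD and 0.406 and 0.288 with NanogWT. At D5 they were 2.42 and 2.66 FPKM with NanogBiD against 0.904 and 0.626 with NanogWT, without overlap. The rise from D0 to D5 was called with NanogBiD (log2 difference 1.79, SE 0.35, limma adjusted p = 0.000361), and the rise from D0 to D7 with NanogWT (1.80, SE 0.35, adjusted p = 0.000362). Between the combinations at D5 the difference of 1.01 missed the threshold (SE 0.35, adjusted p = 0.0563) and was called with TPM, a pseudocount of 0.1 or when only the groups compared were fitted.

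Dppa2, Dppa5a and Trap1a followed at D7, and with NanogBiD alone among the libraries of that day they reached 1 FPKM. Up to D3, Dppa2, Dppa4, Tcl1 and Trap1a were listed at 0 in every library except 1 NanogWT library at D0 with 0.0652 FPKM of Dppa2, and Dppa5a only showed 0.104 in 1 NanogWT library at D3. At D5, the sole values above 0 for these 5 genes were 0.290 FPKM of Dppa5a and 0.298 of Trap1a, each in 1 NanogBiD library. Counted by a level of at least 1 FPKM in all libraries of the day, NanogBiD cells reached it at D3 for Fbxo15, D5 for L1td1, D7 for Dppa2, Dppa5a and Trap1a, and D8 for Dppa4 and Tcl1. NanogWT cells reached it at D3 for Fbxo15, D7 for L1td1, D10 for Dppa5a and D12 for Dppa2 and Trap1a, and at no sampled day for Dppa4 and Tcl1.

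Relative to D0, the number of the 7 genes called higher with NanogBiD was 0 at D1 (5.06% of the 16842 tested genes were called higher), 1 at D3 (8.95%), 2 at D5 (13.3%), 5 at D7 (12.7%), and all 7 at D8 (18.2%), D10 (21.6%) and D12 (24.6%). The D8 calls rest on 1 NanogBiD library, whose spread was taken from the other groups. With NanogWT, D1 gave 0 (4.61%), D3 gave 1 (9.55%), D5 gave 1 (10.8%), D7 gave 2 (12.0%), D8 gave 1 (12.8%), D10 gave 3 (11.8%) and D12 gave 7 (12.2%). A call lower was not possible for any of the 7, as each was at most 0.20 FPKM in every D0 library. From D1 to D12 the share of tested genes called lower was 3.79%, 6.06%, 6.23%, 6.15%, 6.73%, 9.84% and 10.2% with NanogBiD. With NanogWT that share was 3.03%, 5.11%, 5.34%, 5.69%, 4.98%, 4.19% and 3.95%. All 7 genes passed the filter of 1 FPKM in 2 libraries. For Dppa4 and Tcl1, the libraries that reached 1 FPKM were the late NanogBiD ones (D8, D10, D12) and 1 NanogWT library of D12. Their calls with NanogBiD at D8, D10 and D12, against D0 or against NanogWT, are therefore partly built in. The NanogWT counts were the less stable of the 2 series, and fitting only the groups compared left 4 at D12.

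The second question was how the combinations differed on a given day. From D0 to D5 none of the 7 was called in either direction, where the share of tested genes called higher with NanogBiD was 0.422% at D0, 0.368% at D1, 1.25% at D3 and 3.2% at D5 and the share called lower was 0.338%, 0.962%, 2.45% and 3.28%. Over those days the genes other than Fbxo15 and L1td1 were at or near 0 in every library, so a call was not possible for them. At D7, the last day on which depth was alike, 4 of the 7 genes were called higher with NanogBiD, where 5.79% of tested genes were called higher and 4.65% lower. The median log2 difference of the 7 was 1.30 and that of all tested genes 0.08. Dppa5a was at 4.11 and 7.87 FPKM with NanogBiD and listed at 0 in both NanogWT libraries, a log2 difference of 2.75 (SE 0.41, limma adjusted p = 4.3e-05). L1td1 was at 19.1 and 16.8 FPKM against 1.87 and 3.44, a log2 difference of 2.41 (SE 0.35, adjusted p = 3.49e-05). For both genes the 2 NanogBiD libraries lay far above the 2 NanogWT libraries. Trap1a was at 1.81 and 1.51 FPKM against 0 and 0 (log2 difference 1.41, SE 0.28, adjusted p = 0.000875). Dppa2 was at 1.47 and 2.15 FPKM against 0.0325 and 0.241 (log2 difference 1.30, SE 0.28, adjusted p = 0.00171).

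The other 3 genes were not called at D7. Dppa4, the partner of Dppa2, was at 0.475 and 0.922 FPKM with NanogBiD and at 0 with NanogWT (log2 difference 0.75, SE 0.31, adjusted p = 0.0796). Tcl1 was at 0.0683 and 0.30 FPKM against 0 (log2 difference 0.24, SE 0.28, adjusted p = 0.589). Fbxo15 overlapped between the combinations, at 3.62 and 5.45 FPKM against 5.06 and 5.91 (log2 difference -0.24, 95% interval -0.95 to 0.47). Thus 6 of the 7 genes had both NanogBiD libraries above both NanogWT libraries at D7, with Fbxo15 as the exception, where 36.4% of all tested genes had that order. With a pseudocount of 0.1, which weighs low values more, or with TPM, Dppa4 was called as well.

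**Figure D2:**
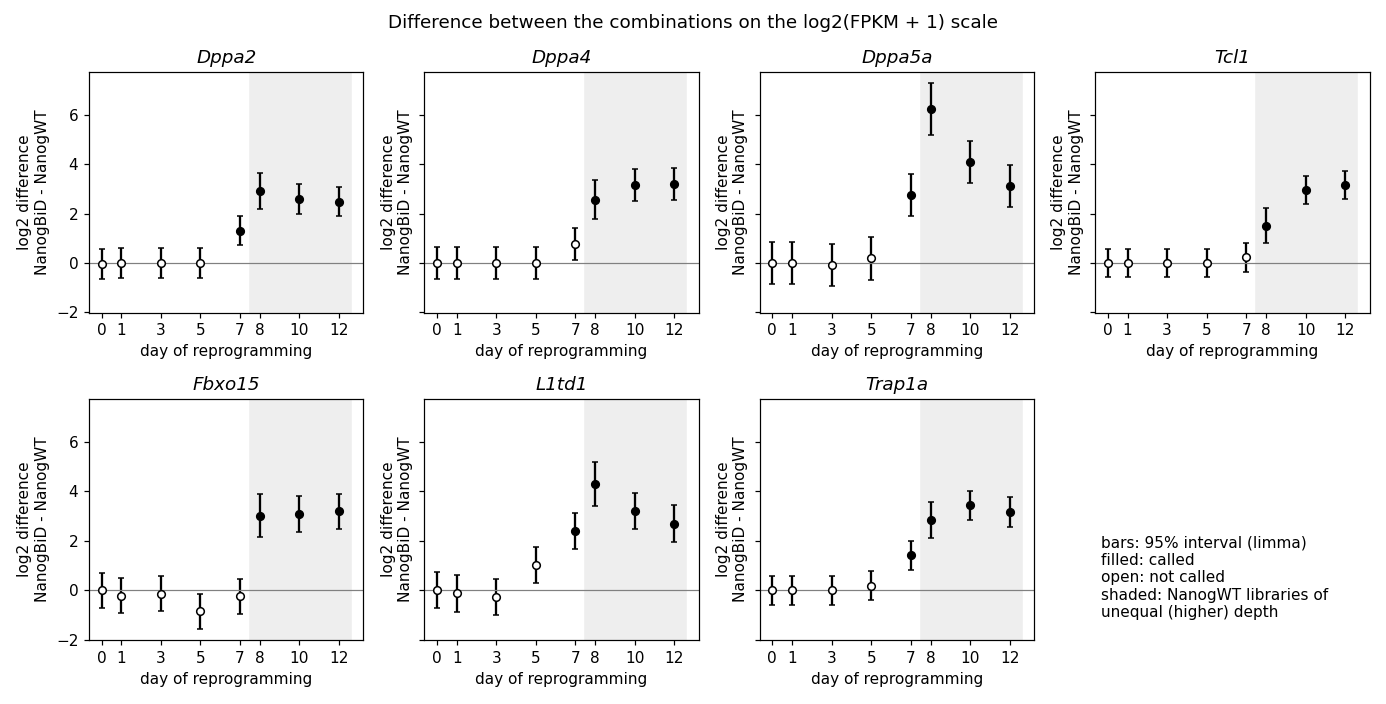
Log2 difference between the combinations, NanogBiD minus NanogWT, on the log2(FPKM + 1) scale against the day, for each gene, with 95% intervals from limma. Filled points passed the adjusted p and the 2-fold limit, and the shaded days are those with deeper NanogWT libraries. The filled points begin at D7 for Dppa2, Dppa5a, L1td1 and Trap1a and at D8 for Dppa4, Tcl1 and Fbxo15.

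From D7 to D8 the Fbxo15 levels of the combinations separated. The NanogBiD library at D8 had 16.5 FPKM of Fbxo15, and the NanogWT libraries had 0.768 and 1.68, below both of their own D7 values of 5.06 and 5.91. This drop was not tested, as no contrast of D8 with D7 was planned, and it falls where the methods place the switch of medium and where the NanogWT libraries become deeper. The part of either was not tested. Fbxo15 (chromosome 18, 84934552 to 84981476) lies across Timm21, which ranged from 9.36 to 15.1 FPKM in the NanogWT libraries of D7 and from 10.9 to 14.8 in those of D8. In the NanogBiD library of D8, Dppa5a was at 128 FPKM, L1td1 at 52.2, Dppa2 at 7.45, Trap1a at 6.11, Dppa4 at 4.89 and Tcl1 at 1.84. In the NanogWT libraries of D8, Dppa4, Tcl1 and Trap1a were listed at 0 and Dppa5a was at 0.0498 and 1.75.

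With the spread of the lone NanogBiD library assumed to be like that of the other groups, all 7 genes were called at D8, where 13.0% of tested genes were called higher and 9.35% lower. The log2 differences ran from 1.51 for Tcl1 (SE 0.34, limma adjusted p = 0.00156) to 6.24 for Dppa5a (SE 0.50, adjusted p = 3.25e-08). All 7 genes were called at D10 too (15.4% of tested genes were called higher and 12.3% lower), with log2 differences from 2.60 for Dppa2 to 4.10 for Dppa5a. These calls were kept in every alternative that was run at these days.

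At D12 all 7 genes were called higher with NanogBiD, against 13.5% of tested genes called higher and 9.97% called lower, and the median log2 difference was 3.16 for the 7 genes and 0.17 for all tested genes. Dppa4 and Tcl1 passed the filter only through late NanogBiD libraries, so their calls here and at D8 and D10 are partly built in. The chromatin factors Dppa2 and Dppa4 were at similar levels in the NanogBiD cells. Dppa2 was at 26.3 and 14.2 FPKM with NanogBiD and at 1.54 and 4.27 with NanogWT (log2 difference 2.48, SE 0.28, limma adjusted p = 6.31e-07). Dppa4 was at 29.6 and 13.9 FPKM against 0.620 and 2.34 (log2 difference 3.20, SE 0.31, adjusted p = 7.71e-08). The genes that encode RNA-binding proteins had the highest RNA levels of the set. Dppa5a was at 1536 and 729 FPKM against 102 and 146 (log2 difference 3.10, SE 0.41, adjusted p = 3.55e-06). L1td1 was at 84.7 and 43.3 FPKM against 6.01 and 11.9 (log2 difference 2.70, SE 0.35, adjusted p = 3.02e-06).

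Of the remaining genes at D12, Tcl1 was at 26.8 and 17.2 FPKM with NanogBiD and 0.626 and 2.92 with NanogWT (log2 difference 3.16, SE 0.28, limma adjusted p = 2.14e-08). Fbxo15 was at 42.0 and 29.9 FPKM against 1.54 and 5.27 (log2 difference 3.19, SE 0.34, adjusted p = 2.38e-07). Trap1a was at 40.5 and 25.4 FPKM against 1.47 and 4.51 (log2 difference 3.17, SE 0.28, adjusted p = 2.72e-08). The combinations did not overlap for any of the 7 genes, an order that 45.9% of all tested genes had at D12. The NanogWT libraries, which had the lower levels, were the deeper ones. Each SE was pooled over all 16 groups. For Dppa2, Dppa4, Dppa5a, Tcl1 and Trap1a, most groups up to D5 were listed at 0 and so had no spread. The SE and p-values of these genes at the late days therefore understate the spread between late replicates. Their calls at D12 were kept when only the groups compared were fitted.

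Replicates of a late group differed in all or most of these genes in the same direction. At D12 the first NanogBiD replicate was above the second for 7 of 7 genes, by 1.40 to 2.13 times, and at D10 likewise for 7 of 7 genes, by 1.36 to 2.18 times. In the NanogWT group of D12 the second replicate was above the first for 7 of 7 genes, by 1.43 to 4.66 times, and at D10 it was so for 6 of 7, with Dppa4 the other way at 0.370 and 0.340 FPKM. Replicate numbers do not mark a shared batch in the labels, and with these correlated deviations the 7 genes do not count as 7 separate observations of a group.

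The change from D0 was also compared directly between the combinations. By D7 it was larger with NanogBiD for 4 genes, Dppa5a (log2 difference of the changes 2.75, SE 0.58, limma adjusted p = 0.00263), L1td1 (2.41, SE 0.50, adjusted p = 0.00223), Trap1a (1.41, SE 0.40, adjusted p = 0.0213) and Dppa2 (1.35, SE 0.40, adjusted p = 0.0269), while 5.2% of tested genes were called in that direction and 4.88% in the other. Leaving out any 1 of the 8 libraries of D0 and D7 left 2 or 3 of these 4 calls, and the ones lost were Dppa2 and Trap1a. It left 2 without either NanogBiD library of D0 or without the first NanogWT library of D7. By D12 it was larger for all 7 genes, by 2.52 for Dppa2 to 3.20 for Dppa4 and Fbxo15, against 13.4% of tested genes (10.5% in the other direction), and leaving out any library of D0 or D12 kept all 7. For Dppa4 and Tcl1 the call by D12 is partly built in by the filter.

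Set against the mES library, the genes stood at different shares of its level in NanogBiD cells. The lower library is given before the higher. At D7, L1td1 was at 12.3% and 13.9%, Fbxo15 at 7.94% and 11.9% and Dppa2 at 4.94% and 7.22%. At the same day Trap1a was at 1.36% and 1.62%, Dppa4 at 1.10% and 2.14%, Tcl1 at 0.146% and 0.643% and Dppa5a at 0.172% and 0.328%. The former group was thus ahead of the latter in both libraries. At D12 the values were 65.6% and 91.9% for Fbxo15, 47.5% and 88.3% for Dppa2, 32.3% and 68.8% for Dppa4, 31.5% and 61.7% for L1td1, 30.4% and 64.1% for Dppa5a, 36.8% and 57.6% for Tcl1 and 22.8% and 36.4% for Trap1a. Only Trap1a stayed under 40% in both libraries, and no gene reached 100%. With NanogWT at D12 the group means lay between 2.68% for Trap1a and 9.74% for Dppa2.

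**Figure D3:**
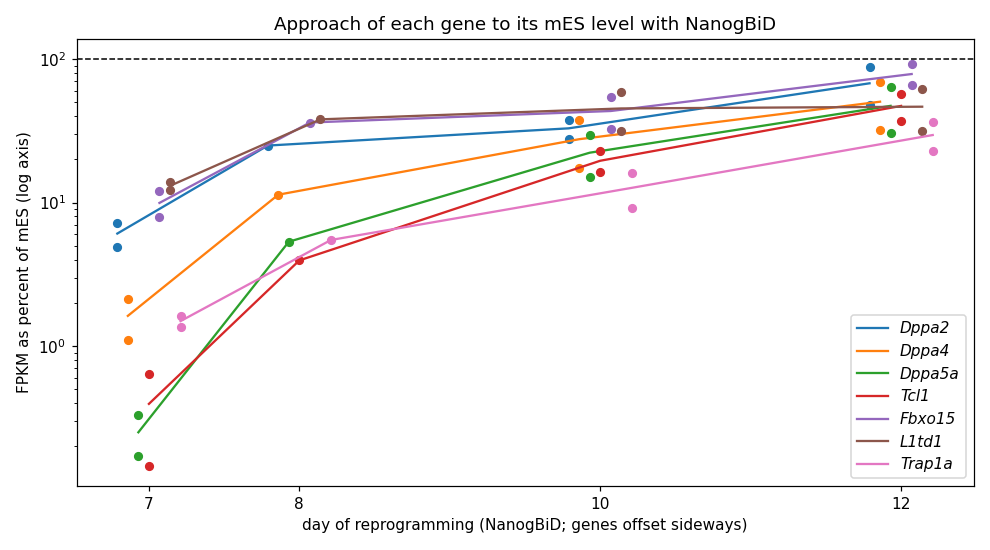
FPKM in NanogBiD libraries of D7, D8, D10 and D12 as percent of the mES library on a log axis, with a point per library and a line through the means. L1td1, Fbxo15 and Dppa2 lead at D7, the genes draw together by D12, and Trap1a is lowest at D12.

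L1td1 changed little in its group means from D8 on, but D8 is 1 library, so a plateau cannot be read from it. That library is a first replicate, and the first replicates of D10 and D12 stood higher, at 81.0 and 84.7 FPKM of L1td1. The level of L1td1 with NanogBiD was 52.2 FPKM in the D8 library, and its mean was 62.2 ± 26.6 (SD, n = 2) at D10 and 64.0 ± 29.3 (n = 2) at D12. The gain in the mean after D8 was within the spread between replicates. Dppa5a went over the same days from 128 FPKM to 534 ± 244 and 1132 ± 571, and Tcl1 from 1.84 to 9.12 ± 2.12 and 22.0 ± 6.8, steps between days that were not tested. With NanogBiD, the ratio of Dppa2 to Dppa4 was highest at D7. It was 3.10 and 2.34 in the NanogBiD libraries of D7, where Dppa4 was only at 0.475 and 0.922 FPKM, so these ratios are uncertain. The ratio was 1.52 at D8, 0.693 and 1.11 at D10 and 0.888 and 1.02 at D12, with 0.692 in mES. In the NanogWT libraries it was 1.12 and 3.62 at D10, where both genes were near or below 1 FPKM, and 2.48 and 1.83 at D12.

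**Figure D4:**
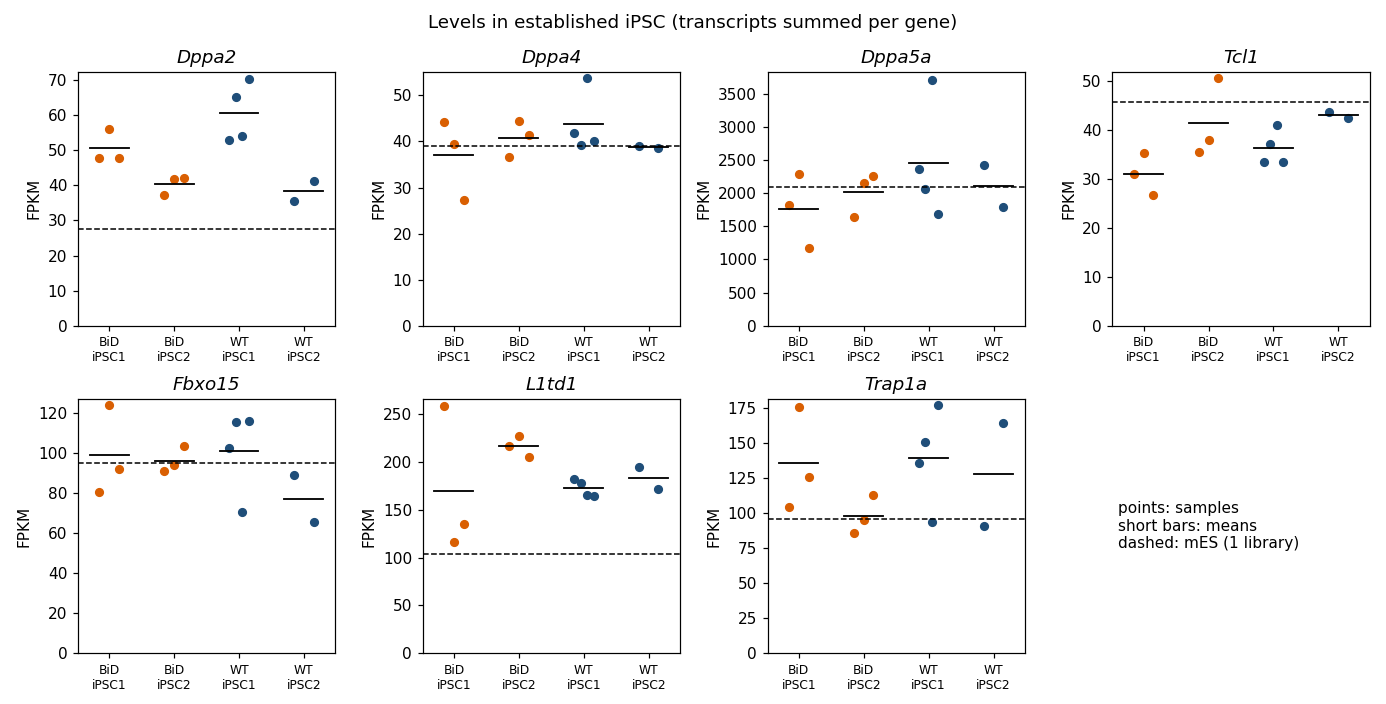
FPKM of each gene in the 12 established iPSC samples, transcripts summed per gene, split by combination and by line, with a point per sample, a short bar at the mean and the mES library dashed. The combinations overlap for every gene, and all 12 samples are above mES for Dppa2 and L1td1.

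Established iPSC were then compared. Since the mES values of the gene table and the summed transcript table differ, for Fbxo15 by 45.6 against 95.2 FPKM, iPSC levels are compared only within the latter. All 7 genes were called higher in iPSC than in MEF (21.7% of 13312 tested genes were, and 18.7% were lower), with differences from 5.25 for Tcl1 to 11.0 for Dppa5a on the log2 scale. In MEF they were listed at 0, apart from Fbxo15 at up to 0.12 FPKM. They thus passed the filter through the iPSC samples alone, so these calls are largely built in and are no separate support. The levels over the 12 samples had their lowest, median and highest values at 1176, 2103 and 3702 FPKM for Dppa5a. They were 116, 180 and 258 FPKM for L1td1, and 85.9, 120 and 177 for Trap1a. Fbxo15 followed with 65.8, 93.1 and 124 FPKM, and Dppa2 with 35.7, 47.8 and 70.2. Dppa4 and Tcl1 were lowest, at 27.4, 39.7 and 53.8 FPKM and at 26.8, 36.4 and 50.8.

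That order was read from the same 12 samples, so the differences between neighbours are a description, with no test. Dppa5a exceeded L1td1 in 12 of 12 samples by a mean log2 difference of 3.49 ± 0.50 (SD), and Fbxo15 exceeded Dppa2 in 12 of 12 by 0.94 ± 0.29. L1td1 exceeded Trap1a in 10 of 12 by 0.56 ± 0.63, and Trap1a exceeded Fbxo15 in 11 of 12 by 0.38 ± 0.37, so the mean difference of the former pair was smaller than its SD. Dppa2 exceeded Dppa4 in 10 of 12 by 0.26 ± 0.35 and Dppa4 exceeded Tcl1 in 9 of 12 by 0.11 ± 0.23, both means smaller than their SD. By line, the ratio of Dppa2 to Dppa4 was 1.01 to 1.75 in the 7 iPSC1 samples and 0.914 to 1.07 in the 5 iPSC2 samples. These ranges overlapped, and a difference of the lines in this ratio was not tested.

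The combination used to make the iPSC left no called difference in these genes. No gene of 12456 tested was called between NanogBiD and NanogWT iPSC by limma (0.0% higher and 0.0% lower), with 201 genes at an unadjusted p under 0.05. For the 7 genes the log2 differences ran from -0.30 for Dppa5a (95% interval -0.76 to 0.16) to 0.12 for Fbxo15 (95% interval -0.21 to 0.44), and no interval of the 7 reached a 2-fold change. Between the lines, Dppa2 had the largest difference of the 7. Its range was 47.8 to 55.9 FPKM in NanogBiD iPSC1, 52.8 to 70.2 in NanogWT iPSC1, 37.3 to 42.2 in NanogBiD iPSC2 and 35.7 to 41.2 in NanogWT iPSC2. All 7 iPSC1 samples lay above all 5 iPSC2 samples, a log2 difference of -0.46 for iPSC2 (SE 0.10, limma adjusted p = 0.0258) that was under the 2-fold limit and so not called, as for the other 6 genes. With that limit, 0.377% of tested genes were called higher and 0.506% lower in iPSC2. The file headers mark every iPSC1 sample with a later passage than every iPSC2 sample, and an effect of passage cannot be told apart from that of the line. The NanogWT iPSC1 samples numbered 1 and 1-2 may be the same clone, which the labels do not say. Over the alternatives the Dppa2 difference between the lines ran from -0.506 to -0.389, and its limma adjusted p was not always under 0.05.

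Against mES, Dppa2 was higher in 12 of 12 iPSC samples, at 1.79 times on average, and L1td1 in 12 of 12, at 1.78 times. Trap1a was higher in 8 of 12, Dppa4 in 9, Dppa5a in 6, Fbxo15 in 5 and Tcl1 in 1. The mES library is a single sample, so these counts carry no test. The NanogBiD iPSC1 sample numbered 9 had the lowest Dppa4, Dppa5a and Tcl1 of all 12 samples and a fibroblast marker sum of 1732 FPKM, where the other 11 had 164 to 645. Its part in the iPSC values was not tested beyond leaving it out, which changed no call.

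Single transcripts were listed for iPSC and mES. Dppa2, Dppa5a, L1td1 and Trap1a each had 1 annotated transcript. Of the 5 Tcl1 transcripts the main one held 70.7% to 88.3% of the gene's FPKM in the 12 iPSC samples and 98.3% in mES, so no iPSC sample overlapped the mES value. The second Tcl1 transcript held 3.90% to 19.5% in iPSC and 1.69% in mES. For Dppa4 the minor of 2 transcripts held 5.23% to 34.1% in iPSC and 22.2% in mES, and for Fbxo15 the main of 4 held 84.3% to 96.1% in iPSC and 95.2% in mES. StringTie assigns shared reads between transcripts by estimation, and the depth of this table is unknown.

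Across the 31 time-course libraries, the levels of the 7 genes were correlated, those of Fbxo15 least so. Pearson r between pairs of the other 6 was 0.828 to 0.989 on the log2(FPKM + 1) scale, and r of Fbxo15 with them was 0.791 to 0.892. These libraries share days and combinations, so the values describe likeness only. Among all tested genes, the most like Dppa2 were Trap1a (r = 0.989), Dppa3 (0.988) and Zfp42 (0.987). Dppa4 was most like Mageb16 (0.994), Prdm14 (0.993) and LOC102642386 (0.993). The nearest to Dppa5a were Lefty2 (0.988), Sox2 (0.979) and Msx3 (0.978), and the nearest to L1td1 were Utf1 (0.977), Tdh (0.972) and Gdf3 (0.972). Tcl1 had 2410141K09Rik (0.995), Gm13051 (0.993) and Zfp987 (0.993), and Trap1a had Ooep (0.992), Lrrc34 (0.990) and Dppa2 (0.989). For Fbxo15 the closest reached only 0.939 (Napepld), with 1110002J07Rik (0.930) and Nup210 (0.929) after it.

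Genes related to the 7 by family or function were listed to place them. Of 7 other Dppa and KH-domain relatives, 3 passed the filter, 2 were called higher with NanogBiD at D7 and the same number at D12, with a median log2 difference over the tested of 1.10 and 2.64. The called genes were Dppa3, at 3.84 and 5.34 FPKM with NanogBiD and 0 with NanogWT at D7, and Ooep, the neighbour of Dppa5a, at 0.968 and 1.44 FPKM against 0 and 0.0484. At D12, Ooep was at 15.96 and 31.04 FPKM against 1.46 and 4.72 (log2 difference 2.64, SE 0.32, limma adjusted p = 1.22e-06). Both Ooep and Dppa5a were thus called at D7 and at D12.

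Few relatives or partners of Tcl1 and Fbxo15 were called. Of 9 Tcl1 relatives and Akt kinases, 4 were tested and 0 called between the combinations at D7 or D12, at median log2 differences of -0.05 and -0.17, and 0 at D8, while at D10 1 was called higher and 1 lower. Of 4 listed SCF core partners of F-box proteins, 3 were tested and 0 called at D7 or D12, at medians of 0.25 and 0.17, while 1 was called higher at D8 and 1 at D10. In iPSC against MEF, Akt1 was lower (log2 difference -3.56, SE 0.43, limma adjusted p = 4.57e-06) and Skp1a, the SCF adaptor, was higher (1.29, SE 0.10, adjusted p = 9.46e-08).

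Genes reported to lie downstream of Dppa2 and Dppa4, among them the Zscan4 family of the totipotent-like state, were called at D12 and not at D7. Of 12 listed, 4 passed the filter in the time course, 0 were called between the combinations at D7 and 4 at D12, with a median log2 difference of 2.22. Zscan4f was at 10.2 and 10.4 FPKM with NanogBiD and 0.594 and 0.775 with NanogWT at D12 (log2 difference 2.75, SE 0.15, limma adjusted p = 3.25e-11). Zscan4c was at 5.87 and 7.60 FPKM against 0.350 and 0.424 (log2 difference 2.47, SE 0.14, adjusted p = 5.72e-11). Zscan4 copies are near-identical, so reads could be split between them and each value is uncertain. Of 9 X-linked germline-associated genes, listed as company for Trap1a, 6 were tested, with 0 called at D7 and 6 at D12 (median 2.66), led by Rhox6 at 9.71 and 19.6 FPKM against 0 and 0.907. The NanogWT values given here for D12 were all under 1 FPKM, so these genes could pass the filter through NanogBiD libraries. For such genes a call at D12 is partly built in, and the counts of 4 and 6 are no separate support.

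Of 12 other ES cell-associated transcripts, 11 were tested, with 4 called higher at D5, 9 at D7 and 11 at D12, at medians of 0.61, 1.82 and 2.64. Here and in the marker lists below, too, a gene could pass the filter through the NanogBiD libraries where it was high. Germ cell markers were at a sum of 20.2 to 31.1 FPKM with NanogBiD and 1.72 to 4.73 with NanogWT at D12 (4 of 5 tested called higher, led by Dazl), with 25.5 in the mES library itself. Trophoblast markers were at 10.7 to 35.5 FPKM against 2.75 to 3.74 (2 of 4 called higher, Krt8 and Krt7), with 31.7 in mES, so the NanogBiD ranges of both sums held the mES value. Primitive endoderm markers were at 2.74 to 3.06 FPKM against 12.9 to 16.3 (1 of 3 called lower, Dab2), with 9.78 in mES. Since Trap1a and Dppa genes are also active in germ cells, the germ cell sum is given beside them, and its part in their values was not tested.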

How the data were processed

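RNA-seq of 31 time-course, 12 iPSC, 2 MEF and 1 mES samples was used, grouped by their labels. The authors trimmed reads with Trim Galore 0.6.4, mapped them to mm10 with HISAT2 2.2.1 and quantified with StringTie 2.2.1, and deposited FPKM values for 37108 genes in 34 samples and for 106520 transcripts in 15 samples. The annotation and any use of strand are not given in the sources used here. FPKM keep no counts, so no interval from counts is given. Relative depth came from 617 genes whose low values are whole multiples of a step (87.3% to 98.2% of values whole within 0.1 reads), and the depth of the transcript table is unknown.

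The analysis used log2(FPKM + 1). Genes reaching 1 FPKM in 2 or more samples entered limma 3.58.1 in R 4.3.3 (lmFit, contrasts.fit, eBayes with trend), 1 fit over all 16 time-course groups and 1 over iPSC with line and combination as terms. A call needed a Benjamini-Hochberg adjusted p under 0.05 over all tested genes and a 2-fold difference. All tests are two-sided. This scale understates changes of low genes, and a value listed at 0 gives no fold. On simulated data with 200 genes changed by a log2 of 2, 98% were recovered at D7 and in iPSC. The changed genes were drawn from those with a mean log2(FPKM + 1) above 2, so recovery of genes near the floor was not tested. Genes named beside the 7 were the 3 most correlated per gene and up to 2 per direction and list with the largest called difference, of which 1 is not reported here. The 7 genes, the lists and the tests were chosen with earlier results of these data known. Alternatives were a pseudocount of 0.1, no filter, TPM, quantile normalization, no fold limit, the compared groups alone, a replicate block, other covariates and leaving out each sample. For the iPSC, another was the mean of the NanogWT iPSC1 samples numbered 1 and 1-2 in place of both. Other steps ran in Python 3.11.15 with scipy 1.17.1, pandas 2.3.3 and numpy 2.4.6.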

Additional observations from a re-analysis of the deposited data

Results flagged for a closer look

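Among 14 sets of 6 iPSC samples (7 genes in 2 combinations), 1 sample stood apart from its group by Dixon's test at 95%, and chance alone flags about 1 set in 20. It was Dppa4 in the NanogWT iPSC1 sample numbered 2, at 53.8 FPKM against 38.6 to 41.8 in the other 5, with a gap of 0.753 of the group's range where 0.625 is the limit.

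The change from D0 differed between the combinations by a test of the difference itself. By D7 it was larger with NanogBiD for Dppa2 (log2 1.35), Dppa5a (2.75), L1td1 (2.41) and Trap1a (1.41). By D12 it was larger for Dppa2 (2.52), Dppa4 (3.20), Dppa5a (3.10), Fbxo15 (3.20), L1td1 (2.70), Tcl1 (3.16) and Trap1a (3.17). At D12 the NanogWT libraries were deeper and held more fibroblast marker RNA, and the part of either in these values was not tested. For Dppa4 and Tcl1 the call by D12 is partly built in, as they passed the filter through late NanogBiD libraries.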

How the results depend on the processing

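The number of the 7 genes called between the combinations was kept within 1.5 times under every alternative at D7, D8, D10 and D12 and for the change to D12. Other counts moved. At D5, 1 gene was called between the combinations (0 in the report's fit) with TPM, a pseudocount of 0.1 or the compared groups alone. Against D0 with NanogBiD, 0 were called at D3 without a filter or with quantile normalization, and 1 at D5 with quantile normalization. Against D0 with NanogWT, the compared groups alone gave 0 at D3, 0 at D8 and 4 at D12, quantile normalization gave 0 at D3, a pseudocount of 0.1 gave 2 at D3, 2 at D5, 3 at D8 and 7 at D10, TPM gave 2 at D5 and 3 at D8, and no fold limit gave 2 at D8. Without the fold limit, 1 gene (Dppa2) was called between the iPSC lines.

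Leaving out 1 library gave 0 to 0 genes for NanogBiD at D3 against D0, 0 to 1 for NanogWT at D3 (0 without the first replicate of D0 or of D3), 0 to 3 at D8 (3 without the first and 0 without the second replicate of D8), 2 to 4 at D10 and 5 to 7 at D12, and 2 to 3 for the change to D7. Of the single-gene values recomputed, 2216 kept direction and side of the threshold, 33 lost the call, 26 gained it and 7 turned direction, none of them called. Over the left-out libraries, Fbxo15 ran from -0.476 to 0.0055 in the change to D7, from -0.535 to 0.0917 between combinations at D1 and from -0.371 to 0.0819 at D3, Dppa4 between iPSC from -0.173 to 0.00359, Trap1a between iPSC from -0.281 to 0.00471 and the result Dppa2, NanogWT D8 against D0 from -0.0456 to 0.312, with -0.0712 for the last when quantiles were normalized. A block for the replicate number was fitted too, and no count of the 7 changed (4 at D7 and 7 at D12 between the combinations). Same-numbered samples did not deviate together at every day (correlation -0.065 to 0.39), so the numbers were not taken as pairs. The median log2 change of all genes moved with the scaling, for NanogWT at D10 against D0 from 0.19 to 0.40 with TPM and -0.04 with quantile normalization, and no call turned direction. The missing depth of the iPSC table and the unequal depth of NanogWT from D8 limit the rest.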
